A study of Mus musculus with 12 samples.

Results

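Spink1, Apela, Afp, Ttr, Apoa1, Apob and Rbp4 are genes usually read as products of the endoderm and of the yolk sac, and their rows were followed in RNA-seq of mouse embryos. The 7 genes were chosen by name and all 7 were present among the 36255 genes of the count table. The visceral endoderm of the yolk sac feeds the early embryo: it takes up maternal protein and lipid and secretes carrier proteins before the liver does so. Afp is the main fetal plasma protein, Ttr carries thyroxine and the retinol carrier complex, Rbp4 carries retinol and is bound by the receptor Stra6, and Apoa1 and Apob are the structural apolipoproteins of high and low density particles. Spink1 is a secreted trypsin inhibitor of gut and pancreas, and Apela is a secreted peptide hormone that acts through the receptor Aplnr, to which Apln also binds.

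Polyadenylated RNA was measured in 6 groups, named by their titles. In days post coitum (dpc), the wild-type groups were wt at 9.0, wt at 9.5 and wt PI at 9.5, and the others were Skp1acont, Skp1acont PI and Skp1aKO, each at 9.5. Each group had 2 libraries, lot 1 and lot 2, except Skp1acont PI, represented by lot 1 alone, so that 11 of 12 labelled libraries enter and lot 2 of that group is not analysed here. The words "cont", "PI" and "lot" are used as written because the labels do not spell them out. Each title also carries "mb", likewise not spelled out, so whether it names a part of the embryo is not known. The labels give embryo as the source and name neither the alleles, a Cre driver nor the strain. They spell out no part of the embryo, while the growth protocol names a medium for ES cells and embryoid bodies. Whether lot 1 and lot 2 are separate embryos is not stated either, so every p-value here measures library spread, possibly technical.

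Total counts ran from 2320599 to 11607085 per library. Skp1a, the targeted gene, was at 198 and 211 TMM-scaled CPM (read counts relative to library size) in the Skp1aKO libraries, at 302 and 103 in the Skp1acont libraries, at 273 in the Skp1acont PI library and at 929 to 1336 in the 6 wt libraries. The library labelled Skp1acont lot 2 was therefore lower in Skp1a than both libraries labelled Skp1aKO, and directions drawn from these labels carry that limit. The Skp1a-labelled libraries also had more counts over genes of sensory cells: the median level per kb of exon over 1485 chemoreceptor genes (olfactory, vomeronasal, taste and trace amine receptors) relative to the lowest library was 7.05 and 9.24 for Skp1aKO, 3.12 and 14.7 for Skp1acont, 3.24 for Skp1acont PI and at most 1.76 for wt.

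RefSeq promoter entries (GRCm38.p6) of 5 of the genes, Apela, Afp, Apoa1, Apob and Rbp4, were searched on both strands, from 250 bases before to 50 after the start, for letters bound by endoderm factors. For GATA factors the search took AGATAA. A second spelling searched for the GATA factors was TGATAA. For FOXA factors it took TGTTTAC, and a second spelling searched for the FOXA factors was TATTTAC. For HNF4 it took CAAAGTCCA, and the HNF1 motif was searched by its longer consensus. The FOXA letters stood once in Apela, 21 bases before the start, and once in the first of 2 entries of Rbp4, 241 bases before it. They occurred in 6.54% of all 32851 promoter windows of this length. The 250 bases before the start of both genes are shown because these entries hold the FOXA letters, Apela being called between wt groups and Rbp4 not. Capitals mark the FOXA letters, which lie on the other strand in both, and the bases run 5′ to 3′ along the gene, from chr8:65037337-65037586 (minus strand) and chr19:38125322-38125571 (minus strand).
Apela: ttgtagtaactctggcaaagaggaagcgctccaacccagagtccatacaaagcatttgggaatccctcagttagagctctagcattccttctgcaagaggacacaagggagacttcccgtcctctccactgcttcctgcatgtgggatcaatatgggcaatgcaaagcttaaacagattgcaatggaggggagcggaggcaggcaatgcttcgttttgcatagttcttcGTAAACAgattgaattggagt
Rbp4: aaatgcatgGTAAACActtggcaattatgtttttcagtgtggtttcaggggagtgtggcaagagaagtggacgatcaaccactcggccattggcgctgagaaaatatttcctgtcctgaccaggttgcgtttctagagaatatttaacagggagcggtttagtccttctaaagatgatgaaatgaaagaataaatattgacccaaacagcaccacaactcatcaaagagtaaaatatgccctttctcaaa
Apoa1 held 1 match to the GATA letters, which occurred in 18.6% of windows. Afp and Apob held none of the letters searched. The HNF4 letters occurred in only 0.475% of windows and the HNF1 letters in 0.0578%. Only exact matches were counted, so an empty search does not show that such sites are lacking. A match is only a run of letters, and none of these windows was assayed here.

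In wt embryos Spink1 and Apela were both lower at 9.5 than at 9.0 dpc, and both were higher with PI than without it at 9.5 dpc. Spink1 (ENSMUSG00000024503.3, GRCm38 chr18:43728082-43737557, minus strand, protein coding) stood at 15.5 and 11.6 CPM at 9.0 dpc, from 45 and 98 counts. It stood at 0.733 and 0.135 CPM at 9.5 dpc, from 2 counts and 1 count, and at 26.9 and 32.1 CPM with PI, from 78 and 299 counts. The 3 wt groups did not overlap: the PI libraries were highest, the 9.0 dpc libraries lay between, and the 9.5 dpc libraries were near 0. With 2 libraries per group this is a description only, since the share of all genes whose wt groups separate was not counted.

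Spink1 was 42.6-fold lower at 9.5 than at 9.0 dpc by pooled counts (95% counting interval 14.3 to 209). The log2 difference was -5.34 ± 0.45 (SE), with an adjusted p of 5.83e-05 in edgeR's quasi-likelihood test. The 3 counts at 9.5 dpc set this size: without wt 9.5 dpc lot 1 the ratio was 93.3, and without lot 2 it was 17.2. With PI at 9.5 dpc Spink1 was 104-fold higher than without (35.4 to 508), a log2 difference of 6.54 ± 0.41 with an edgeR adjusted p of 4.87e-05. That ratio was 228 without wt 9.5 dpc lot 1 and 42.1 without lot 2. Both differences kept an adjusted p below the threshold of 0.05 in each alternative that was run.

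Against wt at 9.0 dpc, Spink1 was 2.45-fold higher in wt PI at 9.5 dpc (2.01 to 2.99), a log2 difference of 1.20 ± 0.23 with an edgeR adjusted p of 0.00875. This call was lost without wt 9.0 dpc lot 2 (adjusted p = 0.0769) and without wt PI lot 2 (adjusted p = 0.158). It was also lost in DESeq2 (adjusted p = 0.0515) and in the edgeR fit of all 6 groups (adjusted p = 0.723).

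Apela (ENSMUSG00000079042.10, GRCm38 chr8:65028417-65037336, minus strand, protein coding) stood at 5.18 and 6.39 CPM in wt at 9.0 dpc, from 15 and 54 counts. No count was found in either wt library at 9.5 dpc. With PI it stood at 2.07 and 1.61 CPM, from 6 and 15 counts. The 3 wt groups again did not overlap, which has no share of all genes beside it here either. The 9.0 dpc libraries were highest for Apela where the PI libraries were highest for Spink1.

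Apela was at least 20.5-fold lower at 9.5 than at 9.0 dpc, with the empty group set at 3 counts in all (edgeR adjusted p = 0.000254). It was at least 5.80-fold higher with PI than without at 9.5 dpc (edgeR adjusted p = 0.00293). Without wt 9.5 dpc lot 2, the deeper library, these bounds fell to 5.53 and 1.56. The PI call was lost in the fit of all 6 groups (adjusted p = 0.248). Against 9.0 dpc, Apela in wt PI was 3.54-fold lower (2.14 to 6.07), a log2 difference of -1.71 ± 0.39 with an edgeR adjusted p of 0.0207. That call did not hold without any 1 of the 4 libraries (adjusted p from 0.0631 to 0.251), in DESeq2 (0.242) or in the fit of all 6 groups (0.723). The gene overlaps Gm45886 on the same strand, and reads of the 2 could be split or shared by the counting.

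**Figure D1:**
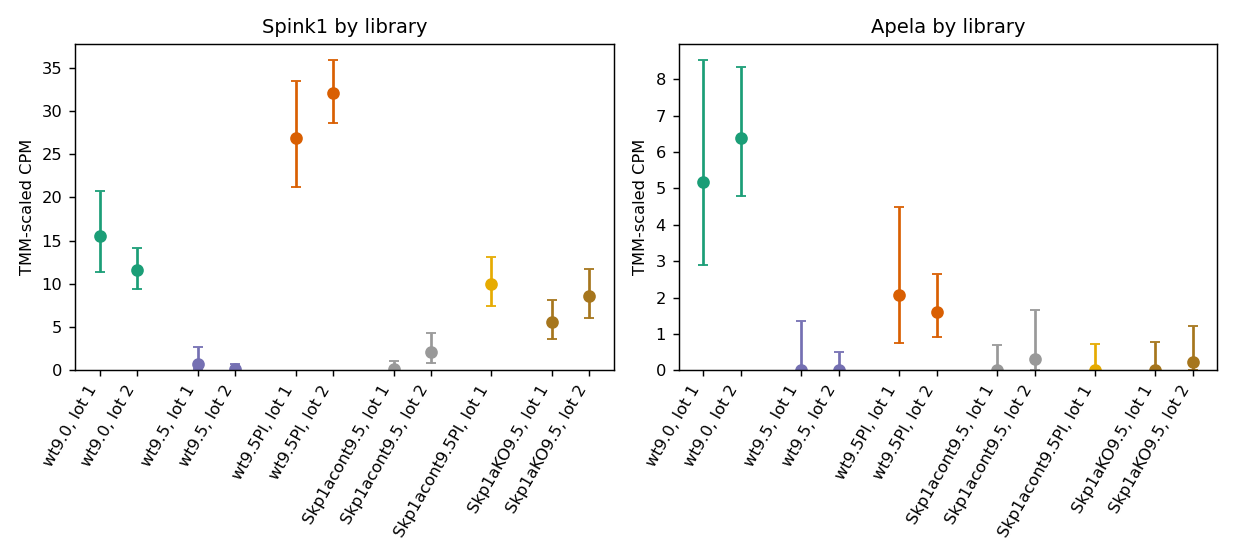
TMM-scaled CPM of Spink1 (left) and Apela (right) in each library, with bars giving the 95% Poisson interval of the count and colours the group. Spink1 was highest in the wt PI libraries, at 26.9 and 32.1 CPM, and Apela in the wt 9.0 dpc libraries, at 5.18 and 6.39 CPM, while both lay near or at 0 in wt at 9.5 dpc.

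The other 5 genes were low throughout wt. Apoa1 (ENSMUSG00000032083.8, chr9:46228580-46230466) had 3 and 9 counts at 9.0 dpc, 4 and 14 at 9.5 dpc and 7 and 15 with PI. In CPM these were 1.04 and 1.07, then 1.47 and 1.89, then 2.41 and 1.61, so the 9.0 dpc libraries were lowest and the other groups overlapped. Its edgeR adjusted p was 0.355, 0.981 and 0.329 in the comparisons of 9.5 with 9.0 dpc, of PI with no PI and of PI with 9.0 dpc. Rbp4 (ENSMUSG00000024990.13, chr19:38116629-38125281) had 7 and 16 counts at 9.0 dpc, 4 and 16 at 9.5 dpc and 13 and 18 with PI, and its groups overlapped in CPM. It was not called between wt groups, and the count ratio of 9.5 to 9.0 dpc was 0.974 (0.507 to 1.85). Apob (ENSMUSG00000020609.14, chr12:7977648-8016835) had 4 to 16 counts per wt library and did not pass the filter on low counts there.

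Afp and Ttr, the defining serum proteins of the yolk sac, were close to undetected. Afp (ENSMUSG00000054932.6, chr5:90490737-90508907) had 21 counts over the 11 libraries, at most 4 in any, and Ttr (ENSMUSG00000061808.4, chr18:20665280-20674321) had 6 counts, 1 and 5 in the wt 9.0 dpc libraries and 0 in the other 9. Neither passed the filter in any comparison. Afp overlaps Gm43449 on the other strand, and its few reads could belong to either where strand was not used. Other plasma proteins of yolk sac and liver were mixed over the 11 libraries. Alb had 29 counts in all, Ahsg 3, Apoa4 6 and Apoc3 4, while Vtn had 526, Apoe 372, Trf 175 and Apoa2 112. Afp and Ttr, the defining genes, thus gave little sign of yolk sac RNA in these libraries. Whether yolk sac or liver was sampled is not stated, so the label of the group as yolk sac genes was not tested.

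In each comparison 4 of the 7 genes passed the filter on low counts: Spink1, Apela, Apoa1 and Rbp4 among wt libraries, and Spink1, Apela, Apob and Rbp4 in the fit of all libraries. Between 9.5 and 9.0 dpc, 2 were called lower and 0 higher, where 16.7% of all 13126 genes tested were called lower and 15.0% higher. With PI against no PI, 2 were called higher and 0 lower, where the shares of all genes were 15.6% and 12.4%. In wt PI against 9.0 dpc, 1 was called higher and 1 lower, with shares of 8.60% and 6.99%. Spink1 and Apela pass that filter through the groups where they are high, so these counts are given as a description only.

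Per kb of exon, a scale on which genes can be compared, the mean level of Spink1 was 40.4 CPM per kb in wt PI, 18.6 in wt at 9.0 dpc, 13.6 in the Skp1acont PI library, 9.66 in Skp1aKO, 1.57 in Skp1acont and 0.595 in wt at 9.5 dpc. Apela reached 5.76 CPM per kb in wt at 9.0 dpc and 1.83 in wt PI. Rbp4 lay between 0.581 and 2.39 CPM per kb over all groups, Apoa1 between 0 and 1.63, Apob between 0.0983 and 0.659, Ttr between 0 and 0.395 and Afp between 0.0176 and 0.232. In the order of Spink1 levels, wt at 9.0 dpc and Skp1acont PI had overlapping counting intervals, as did Skp1acont PI and Skp1aKO, and the ranges of Skp1acont and wt at 9.5 dpc overlapped.

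Among Skp1a-labelled libraries, Spink1 was present in Skp1aKO and in Skp1acont PI and scarce in Skp1acont. It stood at 5.53 and 8.56 CPM in Skp1aKO (26 and 39 counts), at 0.189 and 2.09 in Skp1acont (1 and 7 counts) and at 9.95 in Skp1acont PI (51 counts). Both Skp1aKO libraries lay above both Skp1acont libraries. The counting intervals of Skp1aKO lot 1 (3.62 to 8.11) and Skp1acont lot 2 (0.841 to 4.31) overlapped. The count ratio of Skp1aKO to Skp1acont was 7.57 (3.62 to 18.3), and the log2 difference of 2.81 ± 0.71 had an edgeR adjusted p of 0.369 and an unadjusted p of 0.00274. None of the 4 genes tested was called there, and 0% of all 18837 genes were: 1308 had an unadjusted p below 0.05, and DESeq2 called 95. Without Skp1acont lot 1 the Spink1 difference was 1.71, and without lot 2 it was 5.08. Each of these fits leaves 1 Skp1acont library, so only the sizes are given.

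Against wt at 9.5 dpc, Spink1 rose in Skp1aKO by 4.41 ± 0.84 on the log2 scale (edgeR adjusted p = 0.00752). This was 23.7-fold by TMM-scaled counts (7.76 to 118) and 41.3-fold by library totals. The call was lost without Skp1aKO lot 2 (adjusted p = 0.0525) and without wt 9.5 dpc lot 2 (adjusted p = 0.0836). The ratio was 52.0 without wt 9.5 dpc lot 1 and 9.58 without lot 2. In Skp1acont the difference from wt at 9.5 dpc was 1.60 ± 1.09 (edgeR adjusted p = 0.248), with a ratio of 3.13 (0.752 to 18.3). Without Skp1acont lot 1 the log2 difference was 2.75 and without lot 2 it was -0.51, each with 1 Skp1acont library left. Both comparisons share the wt 9.5 dpc libraries.

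The single Skp1acont PI library had 10.7 times the Spink1 of Skp1acont (5.05 to 26.2), 4.75 times without Skp1acont lot 1 and 52.5 times without lot 2. It had 3.10-fold less than wt PI (2.31 to 4.24), and 2.06-fold less by library totals, so the size depends on the scaling. These intervals cover counting error only, and a single library gives no spread of its own. A test of whether the PI difference of Spink1 differed between Skp1acont and wt, added after the data were seen, gave -3.17 ± 1.27 on the log2 scale (edgeR adjusted p = 0.770), and 0 of 18837 genes passed it. Apela had 0 counts in Skp1acont PI, at least 2.94-fold less than in wt PI (1.95 by library totals). It had at most 1 count in each other Skp1a-labelled library.

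Apob rose in Skp1aKO against wt at 9.5 dpc by 3.0 ± 0.80 on the log2 scale (edgeR adjusted p = 0.0207) and in Skp1acont by 2.76 ± 0.80 (edgeR adjusted p = 0.0279). Its counts were 43 and 42 in Skp1aKO, 15 and 44 in Skp1acont, 28 in Skp1acont PI and 6 and 4 in wt at 9.5 dpc. In CPM all 5 Skp1a-labelled libraries lay above both wt 9.5 dpc libraries, but the nearest had overlapping counting intervals. These were Skp1acont lot 1 at 2.84 (1.59 to 4.69) and wt 9.5 dpc lot 1 at 2.20 (0.807 to 4.79). The share of all genes that separate in this way was not counted. Skp1aKO and Skp1acont differed by 0.24 ± 0.65 (edgeR adjusted p = 1), but the 2 Skp1acont libraries disagreed. The count ratio of Skp1aKO to Skp1acont was 3.23 without Skp1acont lot 2 and 0.698 without lot 1. Together with Spink1, Apob made 2 genes called higher and 0 lower in Skp1aKO, where 17.6% and 18.7% of all genes were. In Skp1acont 1 was called higher and 0 lower, where 19.3% and 17.1% of all genes were. The Skp1aKO call of Apob was lost without Skp1aKO lot 1 (adjusted p = 0.0862), Skp1aKO lot 2 (0.0844) or wt 9.5 dpc lot 2 (0.148), and the Skp1acont call without wt 9.5 dpc lot 1 (0.0560) or lot 2 (0.174).

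Apob is long, with 13.934 kb of exon, and its counts were set beside the chemoreceptor level. The background set had 2 versions: a first set of 1783 gene names kept pseudogenes, and it was narrowed to 1485 after its levels had been seen. The narrower set gives an expected 223.24 background counts for Apob over the 11 libraries and the first set 195, against 223 observed. The observed count lay within its 95% Poisson interval of the expected one in 9 libraries with the narrower set and in 8 with the first. It was above in Skp1acont PI with both sets, also above in Skp1aKO lot 1 with the first, and below in wt 9.5 dpc lot 2 with both. With this background subtracted, the Skp1aKO difference of Apob was 4.08 (edgeR adjusted p = 0.158) with the narrower set and 3.68 (0.219) with the first. The Skp1acont difference was -2.47 (0.535) with the narrower set and 1.84 (0.562) with the first, so neither Apob call held and the sign of the second depended on the set. Spink1 in Skp1aKO remained called with both (adjusted p = 0.0328 and 0.0299).

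Measured against the same background, Spink1 was above it in 8 libraries with the narrower set and 9 with the first, and Apela was above in 4 with both, the 4 wt libraries of 9.0 dpc and PI. Rbp4 was above in 9 and Apoa1 in 7 with both sets. Afp was above in none and Ttr in 1, wt 9.0 dpc lot 2. Rbp4 had 7 and 11 counts in Skp1aKO, 8 and 11 in Skp1acont and 4 in Skp1acont PI, and was not called against wt at 9.5 dpc. Apoa1 had 0 counts in both Skp1aKO libraries, at least 5.48-fold less than wt at 9.5 dpc. That bound was 2.70 without Skp1aKO lot 1, 2.78 without lot 2 and 3.15 by library totals. Apoa1 had 1 count in each Skp1acont library. It did not pass the filter in that fit, and without the filter its edgeR adjusted p against wt at 9.5 dpc was 0.00750 for Skp1aKO and 0.0489 for Skp1acont (-2.87 ± 0.95).

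**Figure D2:**
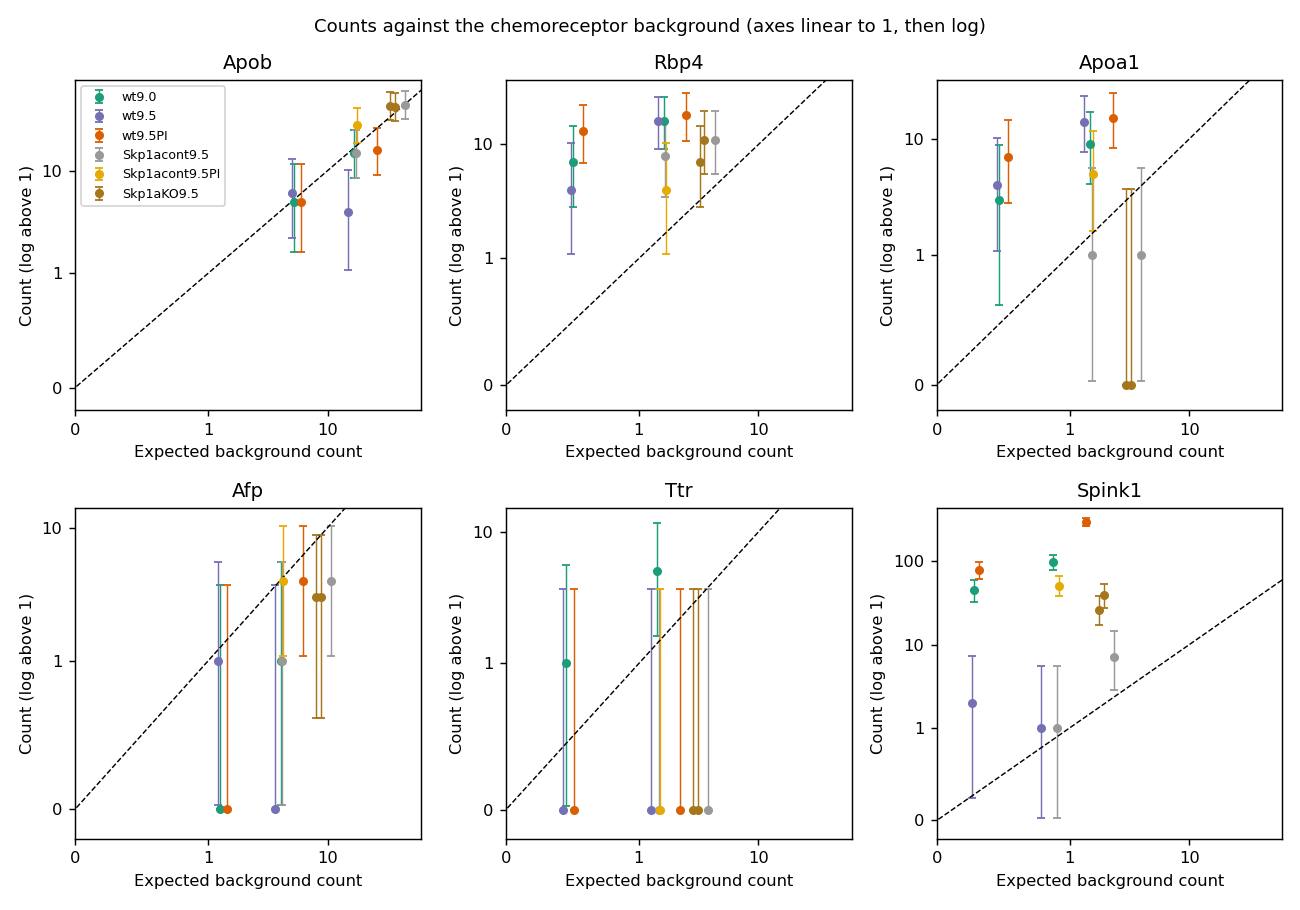
Observed count (vertical) against the count expected from the narrower chemoreceptor set (horizontal) for 6 of the genes in each library, both axes linear to 1 and logarithmic above, with 95% Poisson bars, colours for groups and a dashed line of equality. Apob follows the line, with 9 of 11 libraries within their interval, while Spink1 lies above it in 8 libraries.

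The genes whose profile was most like a member were those with the smallest root mean square difference of centred log2 CPM over the 11 libraries, out of 18836. For Spink1 they were Nkx2-9 (0.739), Foxa1 (0.833) and Shh (1.05), beside the SD of Spink1 itself of 2.03. Shh is the secreted Hedgehog ligand, Nkx2-9 a homeobox gene of the ventral neural tube, and Foxa1 a forkhead factor of both endoderm and floor plate. Foxa1 had 37 and 84 counts in wt at 9.0 dpc, 0 and 2 at 9.5 dpc and 29 and 127 with PI. For Apela the nearest were Etv2 (0.484), Phlda2 (0.578) and Spint1 (0.616), beside its own SD of 1.55. Etv2 is a transcription factor of blood and vessel precursors and Phlda2 an imprinted gene of the placenta. For Apob they were Rslcan18 (0.192), Olfr133 (0.216) and Mdm4-ps (0.244), an olfactory receptor and a pseudogene among them. For Rbp4 they were Zfp954 (0.310), Zfp558 (0.321) and AY074887 (0.329). Apela ranked 18 for Spink1 (1.52), while Spink1 ranked 6049 for Apela. Libraries of a group share their conditions, so these distances describe 6 groups more than 11 separate points.

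**Figure D3:**
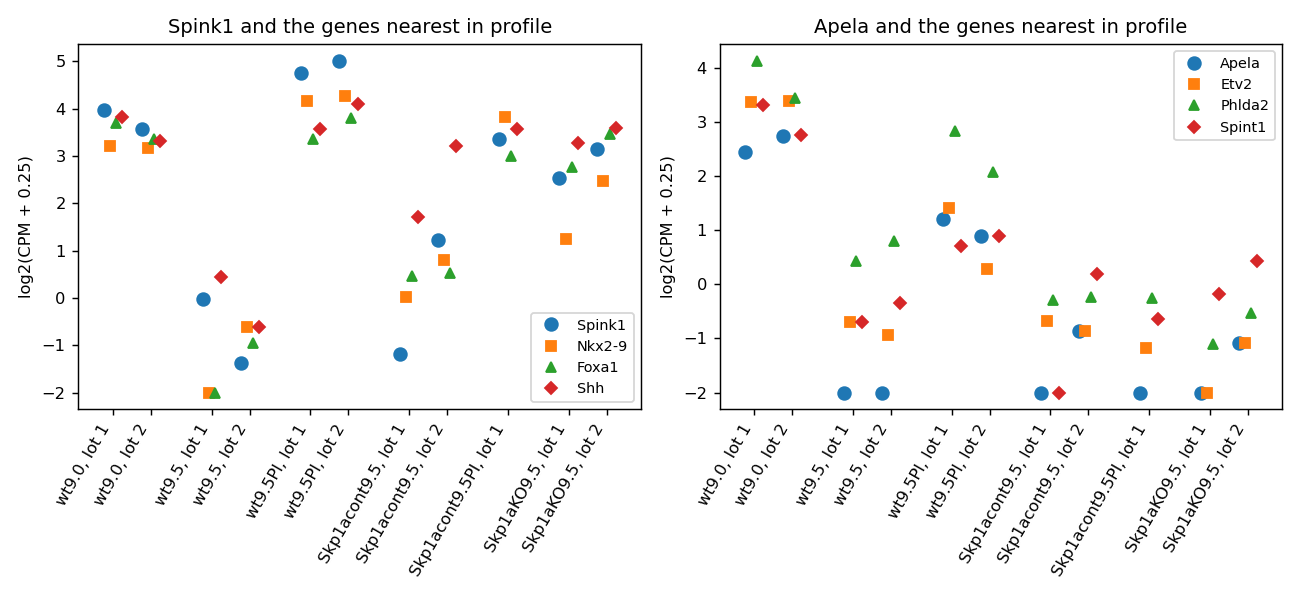
log2(CPM + 0.25) of Spink1 (left) and Apela (right) with their 3 nearest genes, by library, each gene with its own marker. Spink1, Nkx2-9, Foxa1 and Shh are all low in wt at 9.5 dpc, and Apela and its nearest genes are highest in wt at 9.0 dpc.

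Of 10 endoderm transcription factors, 6 were tested among wt libraries, and 3 fell and 0 rose at 9.5 against 9.0 dpc. Of all genes tested there, 16.7% were called lower and 15.0% higher. Foxa2, which specifies endoderm and floor plate, had 34 and 97 counts at 9.0 dpc and 0 in both 9.5 dpc libraries (edgeR adjusted p = 1.46e-05). Foxa1 fell by 5.66 ± 0.50 on the log2 scale and Gata6 by 2.11 ± 0.64. With PI, Foxa2 (40 and 121 counts) and Foxa1 rose and 0 fell, where 15.6% of all genes were called higher and 12.4% lower. In Skp1aKO against wt at 9.5 dpc, 2 of 8 tested rose, Foxa2 and Foxa1, and Sox17 fell. The shares of all genes there were 17.6% and 18.7%. The same 2 genes rose in Skp1acont and 0 fell, where the shares were 19.3% and 17.1%. The wt 9.5 dpc libraries on the other side were the same. Foxa2 had 46 and 58 counts in Skp1aKO and 13 and 22 in Skp1acont, and Foxa1 rose in Skp1acont by 2.46 ± 0.79 (edgeR adjusted p = 0.0367). The list's median log2 difference was -1.47 at 9.5 against 9.0 dpc, beside -0.02 over all genes, and 0.25 with PI, beside 0.01.

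Of the 9 partners and receptors, 3 rose and 2 fell at 9.5 against 9.0 dpc, where 15.0% of all genes tested were called higher and 16.7% lower. Apln fell by 1.07 ± 0.24 and rose by 1.34 ± 0.24 with PI, while Aplnr, the receptor of both peptides, rose by 0.81 ± 0.24 with PI. Of 5 genes of lipoprotein assembly, 3 were tested among wt libraries, and P4hb, a subunit of the transfer protein that loads Apob, fell at 9.5 dpc and rose with PI. Of 5 endocytic genes of visceral endoderm, Fcgrt rose at 9.5 dpc and none fell. Of 15 other plasma proteins only 4 were tested there, of which Vtn, also made outside the liver, rose by 3.76 ± 0.27. Against wt at 9.5 dpc, of 4 lipoprotein assembly genes tested, 1 rose and 1 fell in Skp1aKO and in Skp1acont. Of 9 partners and receptors, 2 rose and 1 fell in Skp1aKO, and 2 rose and 0 fell in Skp1acont. Of 4 endocytic genes tested 1 fell in each. Shares of all genes called higher and lower were 17.6% and 18.7% in Skp1aKO and 19.3% and 17.1% in Skp1acont.

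Markers of other tissues were followed in the same comparisons, and their counts stand beside the shares of all genes called. These shares were 15.0% higher and 16.7% lower at 9.5 against 9.0 dpc. They were 15.6% and 12.4% with PI against no PI, and 8.60% and 6.99% in wt PI against 9.0 dpc. Of 6 epithelial genes, all 6 fell at 9.5 against 9.0 dpc and in wt PI against 9.0 dpc, and 3 rose and 0 fell with PI against no PI, among them Krt8 by 1.09 ± 0.26 and Krt18 by 1.17 ± 0.28. Their summed level was 242 and 254 CPM at 9.0 dpc, 29.7 and 40.8 at 9.5 dpc, at most 60.2 with PI and 20.3 to 34.1 in the Skp1a-labelled libraries. Each of the 6 was counted in every library. All 3 tested of 5 macrophage genes rose at 9.5 dpc, with sums of 22.7 to 25.3 CPM there and 0.345 to 3.33 in the other wt libraries. Primitive erythroid genes summed to 14813 and 19710 CPM at 9.5 dpc and 7184 to 9092 in the other wt libraries, with 3 of 6 higher at 9.5 dpc and 3 of 6 lower with PI. Trophoblast and decidua genes summed to 181 and 36.9 CPM at 9.5 dpc and 4.49 to 8.91 in the other wt libraries, with none of 3 tested called. Prl8a2 alone, a decidual prolactin family gene, averaged 104 CPM at 9.5 dpc, from 718 counts. Midbrain neuroepithelial genes were counted in every library, at 392 to 762 CPM summed in wt, with 5 of 7 tested higher and 2 lower at 9.5 dpc. Of 5 endothelial genes 1 rose at 9.5 dpc, near the share of all genes, and of 2 tested surface ectoderm genes 1 fell. The endothelial sum differed by lot in all wt groups, at 464 to 490 CPM in lot 1 and 174 to 183 in lot 2. Kdr averaged 25.9 CPM at 9.0 dpc and 37.6 at 9.5 dpc, a minor part of those sums. The part of these tissues in the Spink1 and Apela differences was not tested.

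The same marker lists were also compared between the Skp1a-labelled libraries and wt at 9.5 dpc. Of all genes tested, 17.6% were called higher and 18.7% lower in Skp1aKO, and 19.3% and 17.1% in Skp1acont. Of 6 primitive erythroid genes, 4 fell in Skp1aKO and 4 in Skp1acont, with sums of 640 and 876 CPM in Skp1aKO, 598 and 2181 in Skp1acont and 4629 in Skp1acont PI. Of 3 macrophage genes tested, 2 fell in each, with sums of 3.90 to 10.97 CPM over the Skp1a-labelled libraries. Of 5 endothelial genes, 3 fell in Skp1aKO and 1 in Skp1acont, and of 6 epithelial genes 2 fell in each. The endothelial sum went the other way. It was 1176 and 636 CPM in Skp1aKO and 639 and 1174 in Skp1acont, beside 464 and 174 in wt at 9.5 dpc. Kdr averaged 14.1 CPM in Skp1aKO and 37.6 in wt at 9.5 dpc, and Tek 2.27 and 11.4. Most of the Skp1aKO and wt sums thus came from the other genes of the list, which are not shown singly. Of 4 trophoblast and decidua genes tested, Gcm1 rose and Prl8a2 fell in each, Prl8a2 to 3 counts in Skp1aKO and 0 in Skp1acont. Of 8 midbrain neuroepithelial genes, 3 rose and 1 fell in Skp1aKO, and 2 rose and 2 fell in Skp1acont. The part of these tissues in the Spink1 and Apob differences from wt was not tested. In bulk RNA, fewer cells of a type and less RNA per cell cannot be told apart.

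**Figure D4:**
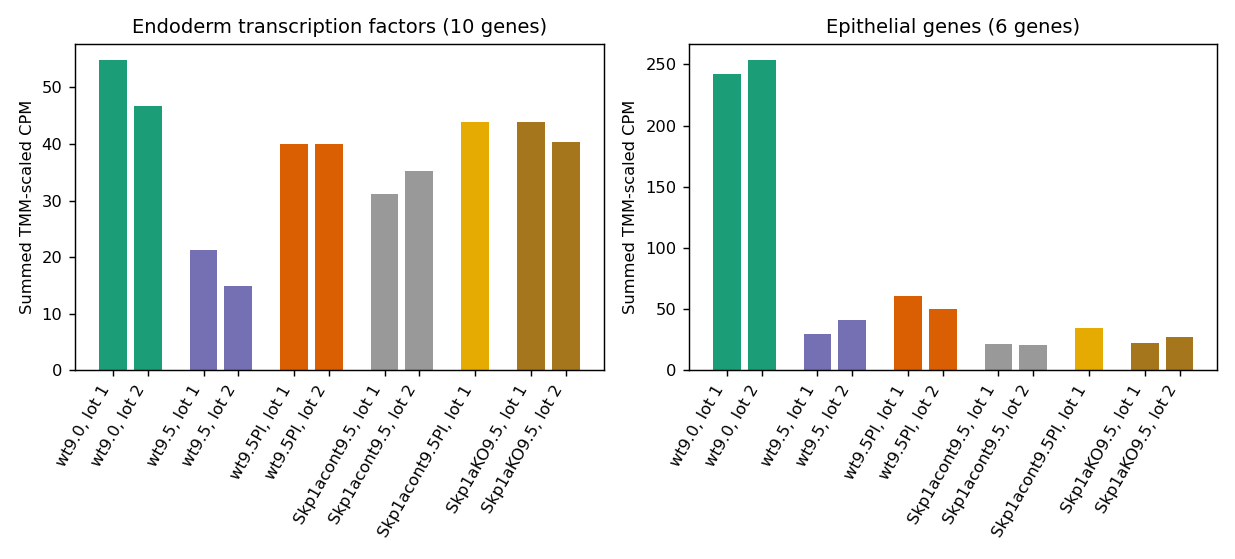
Summed TMM-scaled CPM of 10 endoderm transcription factors (left) and 6 epithelial genes (right), 1 bar per library, coloured by group. The endoderm sum is lowest in the wt 9.5 dpc libraries, at 21.3 and 14.9 CPM. The epithelial sum is highest at 9.0 dpc, at 242 and 254 CPM. Within the endoderm list, only Foxa2 (13.8, 13.0 CPM by wt PI library) and Foxa1 (9.98, 13.6 CPM) were called higher with PI. Without PI, neither passed 0.270 CPM in the wt 9.5 dpc libraries. Both are also genes of the floor plate, so the taller wt PI bars do not show a rise of the other endoderm factors.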

How the data were processed

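The authors deposited raw read counts, whole numbers for each gene and library, in a single table. The submitters' processing notes name Trim Galore 0.6.7 for trimming and GRCm38 (mm10) as the build. Which aligner and counter were run, and whether strand was used, is not given in the sources used here. Libraries were grouped by title.

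From the counts, differences were tested with edgeR 4.0.16 (quasi-likelihood, robust, TMM scaling, filterByExpr by group, two-sided) in R 4.3.3, with Benjamini-Hochberg adjustment over all genes tested and calls at an adjusted p under 0.05. Comparisons among wt groups were fitted on the 6 wt libraries and the others on all 11. This choice was made because earlier results of these data showed wider spread in the Skp1a-labelled libraries, and it matters: the biological coefficient of variation was 19.6% among wt libraries and 35.3% over all. Errors are standard errors of log2 differences. Count ratios pool a group's counts, scaled by TMM, with exact conditional 95% intervals, and a group at 0 takes 3 counts as its limit. Intervals and limits cover counting error only. Scripts were tested on simulated data. Exon lengths and positions came from GENCODE M21 (GRCm38), and promoters from RefSeq.

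The members, lists and tests were chosen with earlier results of these data known. Named genes are the 7 members, the targeted gene, the 3 nearest genes in profile of each member tested, and up to 3 called genes per list and direction. Genes with few counts are named to describe the lists. A result that this rule would name is not reported here. The PI interaction and the background subtraction were added after the data were seen, and the chemoreceptor set was narrowed from 1783 to 1485 genes after its first levels were seen, so results are given with both. Alternatives were DESeq2 1.42.0, other scalings, no filter, the lot as a block, other sets of libraries and leaving out each library. Same-numbered wt libraries deviated together (correlations of 0.297 to 0.342 for the 3 pairs of wt groups), a pairing taken from the data and not from the labels. For pairs with a Skp1a-labelled group it was -0.01 to 0.18.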

Additional observations from a re-analysis of the deposited data

Results flagged for a closer look

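Spink1 stood at 9.95 CPM in the single Skp1acont PI library, which enters no tested comparison of 2 groups, while the 2 Skp1acont libraries without PI had 0.189 and 2.09 CPM. It stands out because it is a signal above the control level in data outside the main comparisons. With 1 library, whether it holds in another was not tested.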

How the results depend on the processing

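With 2 libraries per group, and counts of 3 or fewer in wt at 9.5 dpc for Spink1 and Apela, the sizes given rest on few counts. Leaving out a library leaves its group with 1, which is assumed to vary like the others. Members with 0 counts in both groups gave no value, DESeq2 gave no adjusted p for Apela with PI against no PI, and members that failed the filter have no main value to compare. Of the values for single members under the other settings, 138 kept direction and side of the threshold, 9 lost the call and 3 changed sign. With a library left out these numbers were 57, 13 and 14, and 4 gained a call. The cause of these changes was not tested.

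Where wt libraries were fitted with all 6 groups, the genes called were 302 (9.5 against 9.0 dpc), 13 (PI against no PI) and 2 (PI against 9.0 dpc), in place of 4161, 3669 and 2046, and the members called in the last 2 were 1 and 0. DESeq2 called 2363, 2162 and 1080 genes, with 1 member for PI against no PI and 0 for PI against 9.0 dpc. With the lot as a replicate block, wt PI against 9.0 dpc had 3735 genes called and Skp1aKO against Skp1acont 1, and no member's call changed in any comparison (Spink1 in wt at 9.5 against 9.0 dpc, -5.31). Same-numbered libraries do not deviate together in every pair outside wt. For Skp1aKO against Skp1acont, where 0 genes were called, DESeq2's size factors gave 1, library totals 4, DESeq2's own test 95, no filter 5 and the wider background 1. For Skp1aKO against wt at 9.5 dpc, leaving Skp1acont lot 2 out of the fit gave 11548 genes in place of 6852. Subtracting the background gave 3722 genes (narrower set) or 3888 (wider), each with 1 member called. For Skp1acont against wt at 9.5 dpc (6866 genes, 1 member), it gave 4076 or 4304 genes and 0 members, the fit of Skp1a-labelled and wt 9.5 dpc libraries 2163 genes and 0 members, and no filter 2 members. Scaling by library totals moved the share of called genes that were higher from 47.2% to 64.0% (9.5 against 9.0 dpc), from 55.2% to 78.4% (PI against 9.0 dpc), from 48.5% to 83.0% (Skp1aKO against wt) and from 53.0% to 85.1% (Skp1acont against wt), with the median of all genes at 1.04 and 1.08 in the last 2. Signs changed for Rbp4 at 9.5 against 9.0 dpc with library totals (0.035), for Rbp4 in Skp1aKO against wt without the filter (-0.081) and for Apob in Skp1acont with the narrower background subtracted (-2.47), none of them called.

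Leaving out each library of the groups compared in turn gave these ranges. Genes called were 2503 to 3391 (9.5 against 9.0 dpc), 1289 to 3188 (PI against no PI), 320 to 1124 (PI against 9.0 dpc), 0 to 5723 (Skp1aKO against Skp1acont), 281 to 1716 (Skp1aKO against wt) and 13 to 13512 (Skp1acont against wt). Members called were 0 to 1, 0 to 2, 0 to 2 and 0 to 2 in the last 4. Rbp4 ran from -0.43 to 0.10 at 9.5 against 9.0 dpc, from -0.076 to 1.12 for PI against 9.0 dpc, from -0.77 to 0.38 for Skp1aKO against Skp1acont, from -0.30 to 0.56 for Skp1aKO against wt and from -0.24 to 0.84 for Skp1acont against wt. Apoa1 for PI against no PI was -0.092 without wt PI lot 1 and -0.020 without wt 9.5 dpc lot 1, against 0.11 with all libraries, and did not pass the filter without either lot 2. For Skp1aKO against Skp1acont, Apob ran from -0.54 to 1.71, and Apela, with 1 count in each group, from -2.61 to 2.55. Spink1 in Skp1acont against wt ran from -0.51 to 2.75.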
